A study of Mus musculus with 39 samples.

Results

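The muscle studied here was the gastrocnemius of C57BL/6 mice (C57BL6/J in the design text), 7 days after injection of Lewis lung carcinoma (LLC) cells, a mouse lung tumour line, set against muscle of mice injected with phosphate-buffered saline (PBS). The members are the 8 libraries whose label gives 7 days of tumour development, called week 1, and the 8 titled as PBS controls, 16 of the 38 libraries with counts analysed here. Per the design text, tumour cells went into the hind flank at 8 weeks of age. The labels give no sex, no tumour mass, no genetic change and no age of the PBS mice at collection, and do not say which litter or cage an animal came from, so the p-values cover only the variation among the sampled libraries, which may be partly technical. Total RNA of whole muscle was sequenced, and counts of reads per gene ran from 14395575 to 24801565 per library. File names give the sequencing lane. Week 1 held 3 libraries of lane 2, 2 of lane 4 and 3 of lane 5, and PBS held 5 of lane 5 and 3 of lane 6, so lane 5 alone held both groups.

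Cancer cachexia is the loss of muscle that accompanies many tumours. In wasting muscle the ubiquitin ligases Trim63 (MuRF1) and Fbxo32 (atrogin-1) mark proteins for the proteasome under control of FoxO transcription factors, and cytokines such as interleukin-6 act through Stat3. Muscle fibres also sense load at the Z-disc and along titin, where LIM-domain and ankyrin-repeat proteins shuttle between sarcomere and nucleus, and small heat shock proteins bind there when filaments are strained.

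Of 14689 genes tested in edgeR's quasi-likelihood fit over all 38 libraries, 9 (0.0613%) passed an adjusted p of 0.05, 7 higher and 2 lower at week 1. The 2 that fell were Csrp3, the muscle LIM protein of the Z-disc, and Ms4a7, a membrane protein of macrophages. The 7 that rose were nuclear copies of mitochondrial genes that stood high in 1 library, week 1 replicate 7. By p these 7 ranked ahead of the 2 that fell, so the adjusted p-values of Csrp3 and Ms4a7 depend on them. Without that library 0 genes passed. At an unadjusted p under 0.05, 4.76% of genes lay lower and 3.91% higher, and without PBS replicate 1 these shares were 2.48% and 3.36%. Of all genes, 53.7% lay below 0, and their median log2 fold change was -0.019. Counts of list members below are to be read beside these shares. Levels below are counts per 1000000 reads (CPM) scaled by edgeR's TMM factors, fold changes are log2 of week 1 over PBS with their standard error (SE), and adjusted p-values run over all 14689 genes.

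Csrp3 (ENSMUSG00000030470; chromosome 7, 48830398 to 48848033 of GRCm38) ran from 20.4 to 115.0 CPM in PBS with a median of 74.3, and from 10.8 to 34.6 at week 1 with a median of 19.9. The groups overlapped through 1 PBS library, replicate 8, at 20.4 CPM, while the other 7 lay at 48.2 or more, above every week 1 library. Csrp3 fell 3.37-fold (-1.75 ± 0.35, n = 8 and 8, edgeR adjusted p = 0.021). That adjusted p is lowered by the 7 copies, which had smaller p-values through week 1 replicate 7. In lane 5 alone the estimate was -1.59, and without PBS replicate 1 it was -1.67 with an adjusted p of 0.069. The direction was the same in all 33 alternative fits and the call held in 13. It ended, among others, with a term for lane 2 (-1.56, adjusted p = 0.12), in the fit of the 2 groups alone (adjusted p = 0.076), and without week 1 replicate 7 (-1.78, adjusted p = 0.35).

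Other load-sensing genes lay on the same side without passing the test. Ankrd2, an ankyrin-repeat protein of the titin I-band that responds to stretch, spanned 52.1 to 131.7 CPM in PBS (median 91.3) and 33.5 to 67.3 at week 1 (median 51.4). All 8 week 1 libraries were below the PBS mean, and the groups overlapped (-0.90 ± 0.26, edgeR adjusted p = 0.33). Its relative Ankrd1 was low in both groups, at a median of 20.3 CPM in PBS and 7.49 at week 1, and PBS replicate 1 alone reached 88.6 (-1.53 ± 0.78, adjusted p = 0.58, and -0.97 without that library). The LIM protein genes Fhl1 and Fhl2 stood at -0.56 ± 0.20 and -0.84 ± 0.35, with edgeR adjusted p-values of 0.46 and 0.50. Fhl1 ran from 531.7 to 1195.1 CPM in PBS, but Fhl2 was near the floor, at 1.24 to 5.72 in PBS and 0.886 to 3.41 at week 1. In contrast, Synpo2, an actin-binding Z-disc protein, lay at 0.33 ± 0.16 (adjusted p = 0.56), above the PBS mean in 8 of 8 week 1 libraries. Over the 27 genes of Z-disc, titin-linked and stretch-sensing proteins, 1 fell (Csrp3) and 0 rose. At an unadjusted p under 0.05 there were 5 lower and 3 higher, against 4.76% and 3.91% of all genes. The median was -0.063, so the list had no common direction.

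Small heat shock proteins and their partners lay lower as a group, none past the adjusted threshold. Cryab, the alpha-B crystallin that binds desmin and titin under stress, spanned 462.3 to 1169.8 CPM in PBS (median 653.3) and 275.2 to 473.9 at week 1 (median 375.2). Only the top of the week 1 range and the bottom of the PBS range overlapped (-0.84 ± 0.21, edgeR adjusted p = 0.21). Hspb1, the HSP25 chaperone of actin filaments, had a median of 88.3 CPM in PBS and 41.5 at week 1, with PBS replicate 1 highest at 198.1 (-1.10 ± 0.35, adjusted p = 0.40). Hspb7, a filamin-binding member, stood at -0.80 ± 0.31, Hspb8, the partner of Bag3 in chaperone-assisted autophagy, at -0.56 ± 0.18, and Hsp90aa1, the inducible HSP90, at -0.51 ± 0.17. Their adjusted p-values were 0.49, 0.43 and 0.43. Of the 24 heat shock and chaperone genes, 20 lay below 0, against 53.7% of all genes, and the median was -0.22. At an unadjusted p under 0.05 there were 7 lower and 0 higher, against 4.76% of all genes lower. Without PBS replicate 1 there were 6 lower, against 2.48% of all genes lower and 3.36% higher. The gap was smaller once lane was taken into account. The median was -0.17 in lane 5 alone, -0.13 with a term for lane 2 or without lane 2, and -0.078 with a term for every lane. In lane 5 alone Cryab stood at -0.55, Hspb7 at -0.51, Hspb1 at -0.39, Hsp90aa1 at -0.25 and Hspb8 at -0.19. The mean log2(CPM + 1) of the list ran from 6.24 to 6.67 over PBS libraries and from 5.98 to 6.29 over week 1 libraries. The lower side was not particular to this list. Of 23 antioxidant genes, 19 lay below 0, with the same median of -0.22. Their median was -0.14 in lane 5 alone and -0.12 with a term for lane 2. At an unadjusted p under 0.05, 3 antioxidant genes lay lower and 0 higher, against 4.76% and 3.91% of all genes.

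Heat shock factor binds repeats of the unit GAA, and 2 paired arrangements of it, GAANNTTC and TTCNNGAA, each its own reverse complement, were searched in the 250 bases before the start of each gene (RefSeq, GRCm38.p6), overlapping matches included. They were present in 7 of the 18 list members with a promoter entry and in 12.8% of 32851 promoters. Cryab and Hsp90aa1 had no entry and were not searched. Among the 7, Hspa1a and Hspa1b have the same sequence around the match. The list was chosen as heat shock genes, so its share of matches does not bear on week 1. Matches stood before Hspb1 and Hsph1, an HSP110-type co-chaperone at -0.37 ± 0.16 (adjusted p = 0.53), and none of those letters before Hspb7 or Hspb8, which lay lower too. The windows of Hspb1 and Hsph1 are shown because these genes are list members with lower values at week 1. Being picked by their values, they do not tell whether the motif goes with lower levels, which was not tested. The GAA and TTC letters of each match are in capitals. The 2 windows lie at chr5:135887782-135887849 on the plus strand and chr5:149636342-149636389 on the minus strand.
Hspb1: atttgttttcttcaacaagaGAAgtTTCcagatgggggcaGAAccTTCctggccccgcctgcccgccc
Hsph1: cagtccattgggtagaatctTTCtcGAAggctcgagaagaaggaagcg

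**Figure D1:**
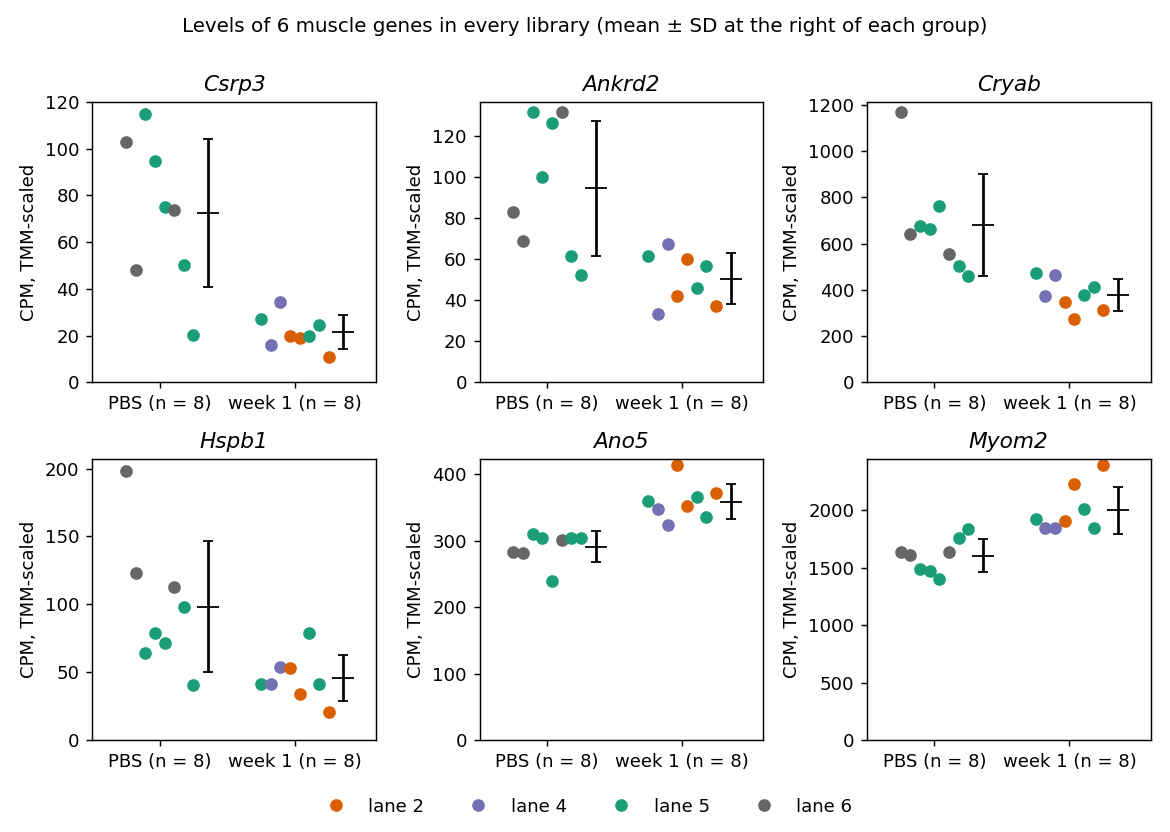
Scaled CPM in every library for 6 genes, PBS at the left and week 1 at the right of each panel, coloured by sequencing lane, with the mean ± SD of 8 libraries beside each group. Csrp3, Ankrd2, Cryab and Hspb1 lie lower at week 1 with overlapping groups, and Ano5 and Myom2 lie higher with none of their week 1 libraries inside the PBS range.

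Of 22 endoplasmic reticulum stress genes, 17 lay below 0, against 53.7% of all genes, with a median of -0.12. Hspa5 (BiP), the main luminal HSP70, spanned 147.0 to 199.8 CPM in PBS (median 172.4) and 128.9 to 145.3 at week 1 (median 138.5). The groups did not overlap, yet the fit over all genes gave -0.32 ± 0.15 and an adjusted p of 0.55. Pdia3, a disulphide isomerase, stood at -0.37 ± 0.12 and Hsp90b1 (GRP94) at -0.25 ± 0.12, with edgeR adjusted p-values of 0.43 and 0.55. Over the list, 5 lay lower and 0 higher at an unadjusted p under 0.05, against 4.76% and 3.91% of all genes. Without PBS replicate 1 it was 1 lower, against 2.48% of all genes.

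Groups that did not overlap were rare, at 7 genes (0.0477% of those tested), 3 higher and 4 lower. Ano5, a muscle membrane protein of the anoctamin family, spanned 239.5 to 309.4 CPM in PBS (median 302.3) and 323.9 to 413.8 at week 1 (median 356.3). Myom2, the fast-fibre myomesin that links thick filaments at the M-band, spanned 1400.0 to 1834.6 CPM in PBS and 1843.9 to 2397.0 at week 1. Both lay above every PBS library, by 0.30 ± 0.10 (edgeR adjusted p = 0.43) and 0.32 ± 0.12 (adjusted p = 0.49). Besides Hspa5, the lower ones with at least 5 CPM were Ppil1, a spliceosomal isomerase (-0.56 ± 0.18, adjusted p = 0.42), and Rrp36, a factor of ribosomal RNA processing (-0.24 ± 0.12, adjusted p = 0.56). The remaining 2, Pde1b and Vwa3b, were at 1.36 and 2.42 CPM over the 16 libraries.

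The 10 named genes of smallest p on the higher side, at 5 CPM or more, did not pass the adjusted threshold. Asb16, a SOCS-box substrate receptor, was at a median of 88.5 CPM in PBS and 105.5 at week 1 (0.31 ± 0.07, edgeR adjusted p = 0.19), and all 8 week 1 libraries exceeded the PBS mean. Yod1, a deubiquitinase, stood at 0.44 ± 0.12, Zyg11b, a cullin substrate receptor, at 0.35 ± 0.10, and the HECT ligase Hecw2 at 0.75 ± 0.21, with adjusted p-values of 0.33, 0.33 and 0.33. Hecw2 ran from 3.45 to 7.95 CPM in PBS. At week 1 it ran from 3.30 to 6.53 in lane 5 and from 8.55 to 13.8 in lanes 2 and 4, which held no PBS library. Dusp1, which removes phosphate from MAP kinases, spanned 19.1 to 63.7 CPM in PBS and 41.9 to 76.0 at week 1 (0.59 ± 0.17, adjusted p = 0.33). Dusp7, of the same family, stood at 0.91 ± 0.27, and at 0.25 in lane 5 alone. The other 4 of the 10 were Prex2, Shroom4, Prepl and Tmem184c, between 0.34 and 0.49. On the lower side, Myl12b, a regulatory light chain of non-muscle myosin, ran from 13.5 to 23.4 CPM in PBS and from 8.33 to 14.5 at week 1 (-0.52 ± 0.12, adjusted p = 0.19).

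The authors' deposited table of week 1 against PBS lists 44 genes, 32 higher and 12 lower, and all 44 had the same sign in the edgeR fit, which used the same samples. Csrp3 leads that list at -0.94 ± 0.17 (SE) with an adjusted p of 8.0e-05 in the authors' deposited table. It also lists Cryab at -0.68, Ankrd2 at -0.66, Hspb1 at -0.59, Hspb7 at -0.58, Hspb8 at -0.46, Hsp90aa1 at -0.43 and Hsph1 at -0.33. The same table holds Hspa5 at -0.30, Ano5 at 0.30, Myom2 at 0.31 and Asb16 at 0.295. Their adjusted p-values in the authors' deposited table are 0.0074, 0.0034, 0.0076 and 0.038. Its higher genes include Kcnc1, a voltage-gated potassium channel (0.53 in the authors' deposited table), Gpd1, the glycerol-phosphate dehydrogenase (0.39), Car3, a carbonic anhydrase abundant in muscle (0.41), and Casq1, the calcium store of fast fibres (0.30). In the edgeR fit, 37 of the 44 had an unadjusted p under 0.05 and 1 (Csrp3) passed over all genes. In lane 5 alone, a subset of the same libraries, all 44 kept their sign.

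**Figure D2:**
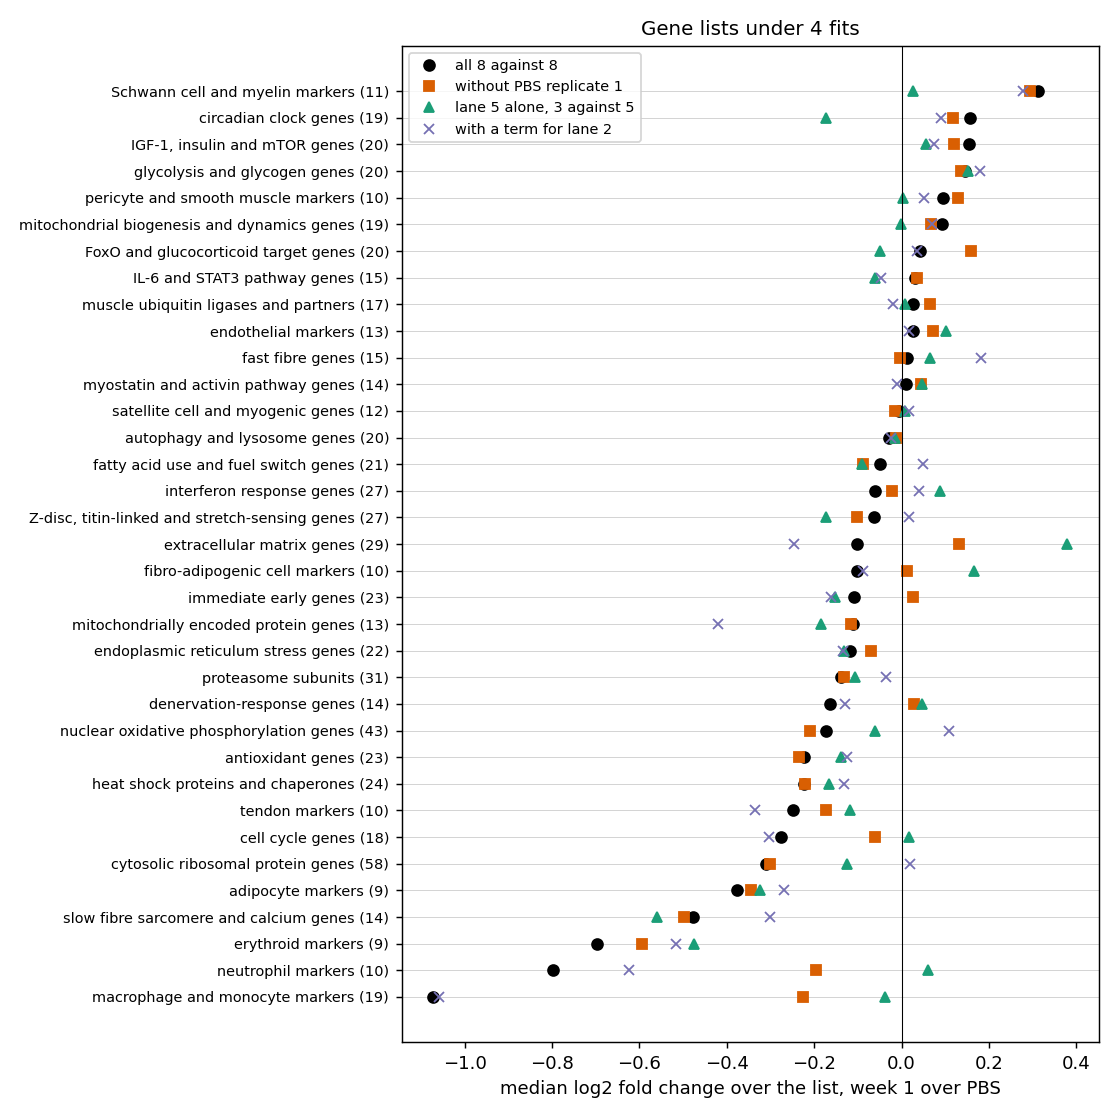
Median log2 fold change of week 1 over PBS for each gene list with 5 or more tested members (number in brackets), in the fit of 8 against 8, without PBS replicate 1, in lane 5 alone (3 against 5) and with a term for lane 2. The slow fibre, heat shock and glycolysis medians keep their side in all 4 fits, as do others, such as adipocyte, erythroid and antioxidant. The macrophage median stays below 0 but moves from -1.07 to -0.039 in lane 5.

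Among fibre-type genes, the slow programme lay lower and glycolysis higher, by small margins, and the fast fibre list had no common direction. Of its 15 genes, 8 lay above 0 and 7 below, with a median of 0.013 (-0.004 without PBS replicate 1). At an unadjusted p under 0.05, 3 were higher and 0 lower, against 3.91% and 4.76% of all genes. Of 14 slow fibre sarcomere and calcium genes, 13 lay below 0, against 53.7% of all genes, with a median of -0.48. The mean log2(CPM + 1) of the list ran from 5.37 to 6.31 over week 1 libraries, inside the PBS range of 4.82 to 6.71. At an unadjusted p under 0.05, 1 gene lay lower, against 4.76% of all genes. That gene was Myl6b, a slow myosin light chain, at -0.39 ± 0.18 (edgeR adjusted p = 0.55). Its level was low, at 2.96 to 5.95 CPM in PBS and 2.67 to 4.48 at week 1. Tnnt1, slow troponin T, spanned 26.0 to 220.6 CPM in PBS and 60.6 to 115.4 at week 1 (-0.60 ± 0.30, adjusted p = 0.58), so week 1 lay inside the PBS range. The median was -0.56 in lane 5 alone and -0.30 with a term for lane 2. In whole muscle, fewer slow fibres and less RNA per slow fibre cannot be told apart, and the same holds for every cell type below. The fast myosin Myh4 was at 0.36 ± 0.20 (adjusted p = 0.61) and the slow myosin Myh7 at -0.31 ± 0.31 (adjusted p = 0.77). Myh7 stood at -0.09 without PBS replicate 3, at -0.17 without PBS replicate 5 and at -0.71 in lane 5 alone. Myh2 and Myh1, the IIA and IIX myosins, were at -0.08 ± 0.30 and 0.11 ± 0.25 (adjusted p-values of 0.95 and 0.90), and the sign of Myh1 turned in lane 5 alone (-0.04). Of 20 glycolysis and glycogen genes, 17 lay above 0 with a median of 0.15. At an unadjusted p under 0.05, 2 were higher, against 3.91% of all genes, among them muscle glycogen synthase Gys1 (0.29 ± 0.13, edgeR adjusted p = 0.54).

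Genes of the wasting programme did not pass the test at 7 days. Fbxo32 spanned 391.4 to 755.6 CPM in PBS and 291.0 to 700.8 at week 1 (-0.38 ± 0.31, edgeR adjusted p = 0.72). Trim63 spanned 224.6 to 849.0 CPM in PBS, the highest being replicate 1, and 228.4 to 488.5 at week 1 (-0.19 ± 0.40, adjusted p = 0.90), and its sign turned without that library (0.10). Of 17 muscle ubiquitin ligases and partners, 2 lay higher and 0 lower at an unadjusted p under 0.05, against 3.91% and 4.76% of all genes. Their median was 0.026. Of 31 proteasome subunits, 0 passed that level in either direction. Of these, 28 lay below 0, against 53.7% of all genes. Their median was -0.14, and -0.035 with a term for lane 2. Foxo1 stood at 0.51 ± 0.30 (adjusted p = 0.65), at -0.01 in lane 5 alone, and the growth inhibitor Mstn at 0.01 ± 0.16 (adjusted p = 0.99). Igf1 stood at -0.08 ± 0.25 (adjusted p = 0.94) and the mitochondrial coactivator Ppargc1a at 0.27 ± 0.13 (adjusted p = 0.57). The cell cycle inhibitor Cdkn1a stood at -0.66 ± 0.41 (adjusted p = 0.66), and at -0.39 without PBS replicate 1, which held it at 55.3 CPM against 8.73 to 30.1 in the other PBS libraries. For the interleukin-6 pathway, Stat3 was at 0.12 ± 0.16 (adjusted p = 0.83), Jak2 at 0.47 ± 0.16 (adjusted p = 0.43) and Socs3 at -1.02 ± 0.50 (adjusted p = 0.58), and PBS replicate 6 held Socs3 at 31.0 CPM against a PBS median of 3.42 (-0.205 without it). In lane 5 alone Jak2 was at 0.06. No early change of the ligases passed the test at these standard errors, which does not show that a change was absent. The collagens Col1a1 and Col3a1 were at 0.01 ± 0.40 and -0.38 ± 0.38 (adjusted p-values of 0.99 and 0.77), with 0.36 and 0.12 without PBS replicate 1.

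Macrophage genes lay lower at week 1, and 1 library, PBS replicate 1, set most of the gap. In that library the mean log2(CPM + 1) of 19 macrophage and monocyte markers was 5.33, against 2.36 to 3.31 in the other 7 PBS libraries and 2.23 to 2.75 at week 1. Ms4a7, the other gene that fell (-2.21 ± 0.45, edgeR adjusted p = 0.030), was at 14.4 CPM in PBS replicate 1, at a PBS median of 1.35 and at 0.111 to 1.22 at week 1. Without that library it stood at -1.06 with an adjusted p of 0.53. The lysosomal protease gene Ctss was at 127.7 CPM in the same library against a PBS median of 6.42, the lysozyme gene Lyz2 at 598.5 against 59.1, the pore-forming Mpeg1 at 102.6 against 5.91, and Spp1 (osteopontin) at 124.5 against 3.85. Over the list, 16 of 19 lay lower at an unadjusted p under 0.05, against 4.76% of all genes, and the median was -1.07. Without PBS replicate 1 there were 4, against 2.48% of all genes, and the median was -0.23. In lane 5 alone the median was -0.039. The same library also had the highest level of the cell cycle list (3.36, against 2.06 to 2.30 in the other PBS libraries), the extracellular matrix list (6.59, against 4.88 to 5.94) and the FoxO and glucocorticoid list (6.11, against 4.74 to 5.26).

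The 7 genes that rose lie head to tail on the minus strand of chromosome 1, from 24611535 to 24616197 of GRCm38, a span of 4663 bases. Gm29216, Gm28661, Gm10925, Gm28437, Gm28438, Gm10222 and Gm28439 match, in that order, part of mt-Co1, then mt-Co2, mt-Atp6, mt-Co3, mt-Nd3, mt-Nd4l and part of mt-Nd4, subunits of the respiratory chain and ATP synthase encoded in mitochondrial DNA. Over 4140 aligned bases of the GENCODE M21 transcripts there were 2 mismatches, and 5 copies had none. The stretches below show why reads of the 2 places are hard to tell apart. The first 100 bases of mt-Co2, at chrM:7013-7112, and of Gm28661, at chr1:24615466-24615565, are the same. The 2 mismatches were A1066T in Gm29216 against mt-Co1 (chrM:6390-6423 and chr1:24616155-24616188) and T3C in Gm28438 against mt-Nd3 (chrM:9459-9491 and chr1:24613087-24613119), with positions counted from 1 at the 5′ end of the mitochondrial transcript and the mismatched base in capitals. The mitochondrial stretches are on the plus strand and the copies on the minus strand.
mt-Co2: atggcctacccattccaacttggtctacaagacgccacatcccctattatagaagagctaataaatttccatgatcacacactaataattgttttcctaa
Gm28661: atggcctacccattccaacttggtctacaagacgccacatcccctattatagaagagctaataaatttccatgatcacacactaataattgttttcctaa
mt-Co1: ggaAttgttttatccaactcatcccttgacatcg
Gm29216: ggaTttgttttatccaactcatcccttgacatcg
mt-Nd3: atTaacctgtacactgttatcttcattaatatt
Gm28438: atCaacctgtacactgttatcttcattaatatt

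Week 1 replicate 7 held 1192544 reads on the 7 copies together, and 63345.1 per 1000000 reads in genes, where the other 15 libraries held from 14.1 to 134.0. In the fit, Gm10925 was at 7.42 ± 1.32 and Gm28439 at 7.28 ± 1.27 (edgeR adjusted p = 0.0081 for both), and without week 1 replicate 7 these were 0.82 and 0.72 (adjusted p = 0.58 and 0.56). The mitochondrial genes of the same stretch had the reverse pattern. Summed over mt-Co2, mt-Atp8, mt-Atp6, mt-Co3, mt-Nd3 and mt-Nd4l, week 1 replicate 7 held 29.5 on the same scale, the lowest of the 16 libraries. Week 1 replicates 2, 3 and 4 held 69.0, 627.4 and 4776.2, PBS replicate 2 held 1121.5, and the other 11 libraries held at least 24280.8. The copies stayed low in those other 4 libraries, whose share of multiply aligned reads was 22.9% to 25.5%, against 7.47% to 19.2% in the 11. Outside the stretch, mt-Nd1, mt-Nd2, mt-Nd5 and mt-Cytb summed to between 60470.8 and 75243.3 in all 16. Of the 13 mitochondrially encoded protein genes, 0 passed an unadjusted p under 0.05 in either direction, and their median was -0.11. The 6 genes of the stretch are among these 13, so the median does not give a difference in mitochondrial RNA between the groups, and whether the alignment of reads differed between libraries was not tested.

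**Figure D3:**
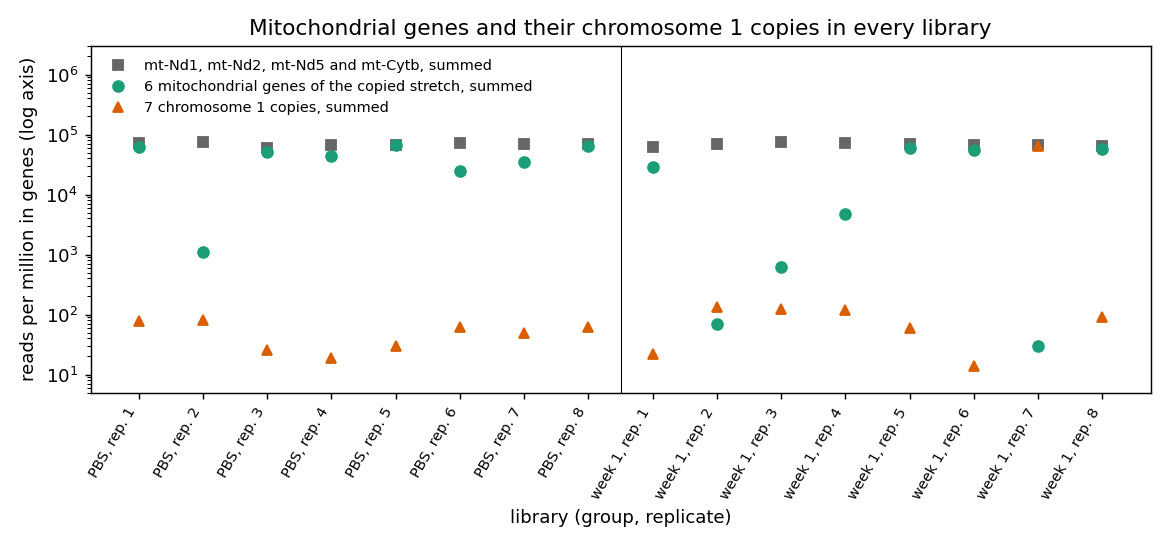
Reads per 1000000 reads in genes, on a log axis, for each of the 16 libraries: 4 mitochondrial genes outside the copied stretch, 6 mitochondrial genes inside it, and the 7 chromosome 1 copies, each summed. The copies stand at the level of the mitochondrial genes only in week 1 replicate 7, where the 6 genes of the stretch are at their lowest.

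Sequencing lane moved with many genes inside week 1. Between the 3 libraries of lane 2 and the other 5, 490 genes differed (3.53% of 13864 tested, 132 higher and 358 lower in lane 2, edgeR adjusted p under 0.05), from 141 to 1868 with 1 library left out. They included 24 of 58 cytosolic ribosomal protein genes and 18 of 43 nuclear oxidative phosphorylation genes, all lower. Those 2 lists lay below PBS at week 1, with medians of -0.31 and -0.17, which were 0.019 and 0.11 with a term for lane 2. Of the 58 ribosomal genes, 4 lay lower at an unadjusted p under 0.05, against 4.76% of all genes. Rps12 was 1 of them (-0.75 ± 0.26, edgeR adjusted p = 0.44, and 0.00 in lane 5 alone). Csrp3 differed by -0.55 between lane 2 and the other lanes (adjusted p = 0.26), and Hspa5 by -0.05 (adjusted p = 0.79). Lane 2 held no PBS library, so lane and tumour cannot be told apart for these 3.

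The 5 library measures (shares of reads in genes, in no gene, ambiguous and multiply aligned, and the mitochondrial share of gene reads) did not separate the groups. The largest gap was in the mitochondrial share, 15.5% ± 4.31 at week 1 and 17.8% ± 3.04 in PBS (SD, n = 8 each, two-sided exact permutation p = 0.23, adjusted over 5 measures 0.57). The 5 libraries lowest in it, at 10.3% to 13.0%, were those low in the copied stretch, 4 of week 1 and 1 of PBS. The other 4 week 1 libraries ran from 14.8% to 21.6% and the other 7 PBS libraries from 15.8% to 21.3%. The smallest exact permutation p was 0.076, for ambiguous reads (3.86% ± 0.53 against 4.41% ± 0.62, n = 8 each, adjusted 0.38).

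Set against PBS and the later tumour times, the medians of Csrp3, Ankrd2, Ankrd1, Cryab and Hspb7 were lowest at week 1. Week 1 differed from week 2 in 7 genes (0.0477%), the same 7 copies, from week 3 in 155 (1.06%, 8 higher and 147 lower at week 1) and from week 4 in 3321 (22.6%, 1425 higher and 1896 lower). Csrp3 had a median of 41.3 CPM at week 2 (n = 7), 92.4 at week 3 (n = 7) and 89.8 at week 4 (n = 8), against 19.9 at week 1. It was lower at week 1 than at week 3 by -2.04 ± 0.36 (edgeR adjusted p = 0.0012) and than at week 4 by -2.08 ± 0.35 (adjusted p = 0.00010), and the difference from week 2 was -1.12 with an adjusted p of 1.00. The authors' deposited table of week 3 over week 1, the reverse direction, lists Csrp3 at 1.38. That is smaller in size than the edgeR value, as -0.94 was beside -1.75 against PBS. Why the sizes differ was not tested. Ankrd2 was lower at week 1 than at week 3 (-1.30 ± 0.27, adjusted p = 0.0055) and week 4 (-1.40 ± 0.26, adjusted p = 0.00035). Ankrd1 differed by -4.28 ± 0.87 (adjusted p = 0.0051) and -3.91 ± 0.84 (adjusted p = 0.0015), with single libraries of weeks 3 and 4 at 918.8 and 852.8 CPM. Cryab was lower than at week 3 (-0.85, adjusted p = 0.040) and at week 4 (-0.67, adjusted p = 0.022), and Hspb7 by -1.46 (adjusted p = 0.011) and -1.61 (adjusted p = 0.00063). The ligases were lower than at week 4, Fbxo32 by -2.38 (adjusted p = 4.0e-06) and Trim63 by -2.23 (adjusted p = 0.00039). Stat3 was lower by -1.10 (adjusted p = 1.5e-05). Ano5 and Myom2 were higher than at week 4, by 0.28 (adjusted p = 0.048) and 0.47 (adjusted p = 0.0069). These comparisons share the week 1 libraries with that against PBS, were fitted without a lane term, and week 4 held libraries of lanes 2 and 4 alone. Some later libraries had few reads in genes: 44.5% in week 3 replicate 3, 61.1% in week 3 replicate 1 and 48.7% in week 2 replicate 6. The week 1 and PBS libraries held 63.6% to 80.9%. What these later libraries add to the differences was not tested.

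**Figure D4:**
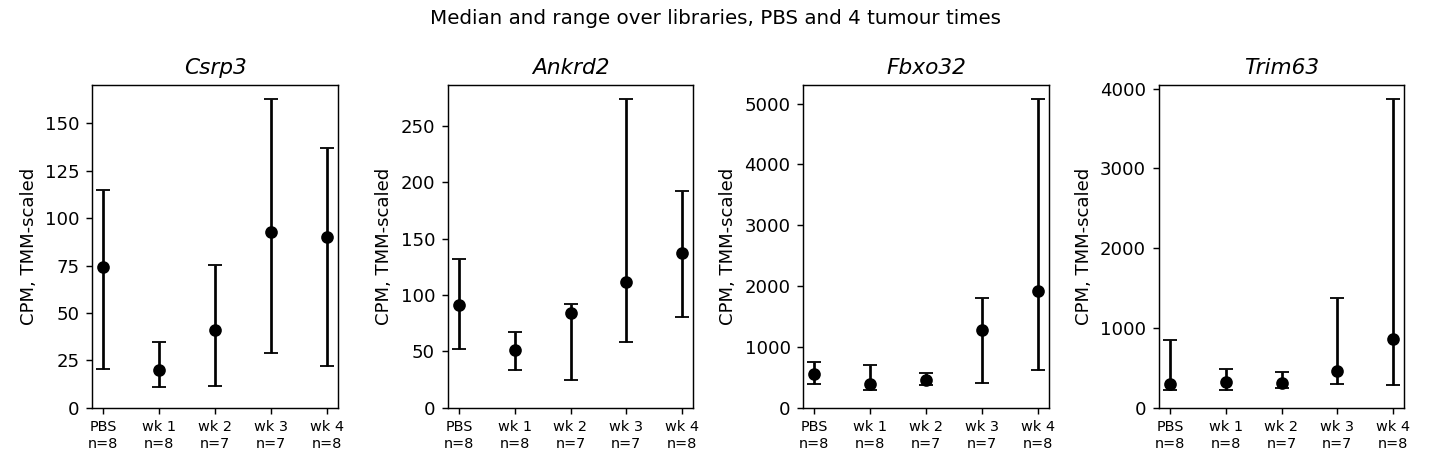
Median scaled CPM (point) and lowest to highest library (bar) of Csrp3, Ankrd2, Fbxo32 and Trim63 in PBS and at 4 tumour times, with the number of libraries under each group. Csrp3 and Ankrd2 have their lowest median at week 1, and Fbxo32 and Trim63 are highest at week 4.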

How the data were processed

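Gene counts of 38 libraries were analysed; 1 sample of the series was not analysed here. Per the labels' protocols, frozen muscle was extracted with Trizol and libraries were made with a TruSeq RNA kit. The submitters' processing notes name FastQC, HISAT2, HTSeq and DESeq2 and the build GRCm38.p5, with no versions. The deposited count files hold whole reads per gene, used without their lines of unassigned reads. The authors' deposited comparison tables hold log2 fold changes and p-values. Names came from GENCODE M21 (45229 of 46078 IDs matched).

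Main test: edgeR 4.0.16 in R 4.3.3, TMM factors, filterByExpr (minimum count 10), 1 mean for each of 5 groups, Benjamini-Hochberg adjustment. Alternatives used DESeq2 1.42.0, limma 3.58.1 (voom), other scalings, filters and lane terms, and left out each library. The p-values of the authors' deposited tables were copied, not recomputed. The fit was tested on simulated counts. Library pairs were checked for duplicates by chi-square (smallest 14.1 per degree of freedom in a group), and none was counted as 1 sample.

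The members, 37 gene lists and tests were chosen with earlier results of these data known. Named genes were: every called gene, the 10 of smallest p in each direction with at least 5 CPM and a non-predicted name, up to 4 of smallest p in each list described, up to 8 in each direction whose groups did not overlap, and 18 genes of muscle wasting, fibre type and matrix named always; Pde1b, Vwa3b, Hsph1, Hspb7, Hsp90b1, Fhl1, Fhl2, Synpo2 and the authors' genes were added after their values were seen. Some genes that meet this rule are not reported here.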

Additional observations from a re-analysis of the deposited data

Results flagged for a closer look

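In 184 sets of 8 libraries (5 library measures, 37 list levels and 50 named genes in each group), 35 held 1 library far from the other 7. Chance flags about 1 in 20 such sets, and sets that share genes are not independent. In PBS replicate 1 this applied to 16 sets. Its mean log2(CPM + 1) was 5.33 for macrophage markers, 1.33 for neutrophil markers, 3.36 for cell cycle genes, 6.11 for FoxO and glucocorticoid targets, 6.81 for muscle ubiquitin ligases and 3.9 for denervation-response genes, each the highest, and 11.66 for fast fibre genes, the lowest. Its scaled CPM was 33.0 for Adgre1, 127.7 for Ctss, 598.5 for Lyz2, 102.6 for Mpeg1, 14.4 for Ms4a7, 46.9 for Pf4, 124.5 for Spp1 and 849.0 for Trim63, all highest in PBS, and 67.7 for Asb16, the lowest. PBS replicate 5 had the lowest Ano5 (239.5), Prepl (11.4) and Prex2 (10.8) and the lowest level of myostatin and activin genes (3.72), and the highest of nuclear oxidative phosphorylation genes (8.56). PBS replicate 2 had the lowest level of mitochondrially encoded genes (9.49).

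In week 1 replicate 7 the copies stood at 2420.2 (Gm10222), 15696.6 (Gm10925), 15620.0 (Gm28437), 2462.0 (Gm28438), 7878.9 (Gm28439), 8428.5 (Gm28661) and 13510.6 (Gm29216) scaled CPM. Week 1 replicate 6 had the lowest satellite cell level (3.46) and Shroom4 (11.7) and the highest keratinocyte (3.51) and glycolysis (10.19) levels. Week 1 replicate 5 had the lowest erythroid level (3.36) and Col3a1 (98.4).

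The difference of week 1 from later weeks passed edgeR's adjusted p of 0.05 for several named genes, as log2 fold changes of week 1 over the later week. Against week 3 these were -4.28 for Ankrd1, -1.30 for Ankrd2, -0.85 for Cryab, -2.04 for Csrp3 and -1.34 for Fbxo32. Against week 4 they were -1.04 for Adgre1, -3.91 for Ankrd1, -1.40 for Ankrd2, 0.28 for Ano5, -1.49 for Cdkn1a, 1.16 for Col1a1, -0.67 for Cryab, -2.08 for Csrp3, -2.38 for Fbxo32, -1.42 for Mpeg1, 0.47 for Myom2, -0.46 for Prex2, -0.35 for Rrp36, -1.86 for Socs3, -1.10 for Stat3 and -2.23 for Trim63. The copies gave 6.76 (Gm10222), 7.04 (Gm10925), 7.01 (Gm28437), 7.04 (Gm28438), 7.00 (Gm28439), 7.29 (Gm28661) and 7.28 (Gm29216) against week 2. In the same order they gave 6.73, 6.42, 6.49, 6.51, 6.33, 6.78 and 6.98 against week 3, and 6.88, 6.67, 6.81, 6.97, 6.53, 6.60 and 6.95 against week 4.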

How the results depend on the processing

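RLE and upper quartile factors and no filter left 7 higher and 2 lower calls, a mean of at least 5 CPM 7 and 1, and a term for lane 2, lane 2 left out (alone or with PBS replicate 1) or a change of at least 1.5 times 7 and 0. DESeq2 called 0 higher and 1 lower, Csrp3. The 2 groups alone, a term for every lane, lane 5 alone and voom called 0 and 0, with 1743, 634, 631 and 1446 genes at an unadjusted p under 0.05. Leaving out PBS replicate 1 and week 1 replicate 7 together, added after seeing the data, gave 0 and 0 in edgeR, DESeq2, the 2 groups alone and the 2 groups with a lane 2 term (923, 949, 1683 and 646 genes at an unadjusted p under 0.05). Leaving out 1 library gave 0 to 7 higher (0 without week 1 replicate 7) and 0 to 3 lower (0 without PBS replicate 1 or week 1 replicates 4, 5, 7 or 8). Groups that did not overlap were 3 higher and 4 lower. The causes were not tested. Lane 2 against other lanes gave 141 to 1868 calls with 1 library left out.

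Csrp3 kept its call in 13 of 33 alternatives and the copies in 23 of 33. Of the other genes named outside the lists, Ms4a7 aside, 0 passed in any of these fits, and the following values turned sign. Mstn was at -0.24 with every lane, -0.16 with lane 2, -0.12 without lane 2, -0.27 in lane 5, -0.15 without lane 2 and PBS replicate 1, -0.10 in voom, and -0.010, -0.011, -0.004 and -0.18 in the 4 added fits (edgeR, 2 groups, DESeq2, 2 groups with lane 2 term). Trim63 was at 0.041 in lane 5, 0.21 without lane 2 and PBS replicate 1, 0.068 in voom, and 0.13, 0.13, 0.13 and 0.28 in those 4. Col3a1 was likewise at 0.59, 0.19 and 0.14, and 0.13, 0.13, 0.14 and 0.21. Igf1 was at 0.099 without lane 2, 0.40 in lane 5, 0.15 without lane 2 and PBS replicate 1 and 0.19 in the last added fit. Myh1 was at -0.021 with every lane, -0.056 with lane 2 and -0.037 in lane 5. In lane 5 Ctss was at 0.21 and Foxo1 at -0.013, and Col1a1 was at -0.009 with at least 5 CPM and -0.14 with lane 2. With 1 library left out, Col1a1 ran from -0.16 to 0.36, Col3a1 from -0.48 to 0.12, Igf1 from -0.25 to 0.066, Mstn from -0.048 to 0.081, Myh1 from -0.010 to 0.20, Myh2 from -0.19 to 0.050 and Trim63 from -0.29 to 0.098. The gap in reads in genes then ran from -1.35 to 1.11 percentage points, in multiply aligned reads from -0.47 to 2.15, and in the other 3 measures kept its sign. No paired analysis was possible because each sample has its own number and the labels pair none. At 14395575 to 24801565 reads per library, depth limits genes near 1 CPM.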

Other observations

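Of the marker lists of cell types other than fibres and macrophages, 0 had a gene past the adjusted threshold. Blood cell lists lay lower. Of 9 erythroid markers, 8 lay below 0 with a median of -0.70 (-0.59 without PBS replicate 1 and -0.47 in lane 5 alone), and 0 passed an unadjusted p of 0.05. Of 10 neutrophil markers, 7 lay below 0 with a median of -0.80 and 2 were lower at that level, but the median was -0.20 without PBS replicate 1 and 0.06 in lane 5 alone. Lymphocyte markers had 2 of 13 members tested, with a median of -0.71, and without PBS replicate 1 the 1 member tested was at -0.005. All 9 adipocyte markers lay below 0 (median -0.38, and -0.32 in lane 5 alone), as did 9 of 10 tendon markers (median -0.25), with 0 of either at an unadjusted p under 0.05. Schwann cell and myelin markers had 10 of 11 members above 0 and a median of 0.31, and 0.025 in lane 5 alone. Medians nearer 0 were those of 13 endothelial markers (0.025, with 1 higher and 0 lower at an unadjusted p under 0.05), 10 pericyte and smooth muscle markers (0.094, likewise 1 and 0), 10 fibro-adipogenic markers (-0.10, 0 and 0) and 12 satellite cell and myogenic genes (-0.006, 1 and 1).

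Among regulators, the clock repressors Nr1d2 (0.33 ± 0.11, edgeR adjusted p = 0.41) and Per2 (0.74 ± 0.28, adjusted p = 0.49) lay higher, but in lane 5 alone Per2 was at -0.58 and the median of 19 clock genes was -0.17 against 0.16 over all libraries. The mitochondrial fusion protein Mfn2 spanned 388.8 to 582.7 CPM in PBS and 542.4 to 726.9 at week 1 (0.27 ± 0.09, edgeR adjusted p = 0.43). Of 19 biogenesis and dynamics genes, 4 were higher and 0 lower at an unadjusted p under 0.05, against 3.91% and 4.76% of all genes. Without PBS replicate 1, 1 was higher, against 3.36% of all genes. Of 27 interferon response genes, 0 lay higher and 3 lower at an unadjusted p under 0.05, and of 20 autophagy and lysosome genes 1 and 1. Over all genes these shares were 3.91% and 4.76%.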
